A study of Mus musculus with 17 samples.

Results

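Mitochondrial ribosomal protein genes were taken as the protein-coding genes whose symbol begins with Mrpl or Mrps followed by a digit. Of the 53679 Ensembl identifiers in the count tables, 78 met this rule in the GRCm38 annotation, 29 named for the small subunit (Mrps) and 49 named for the large subunit (Mrpl). All 78 also passed the filter on low counts that left 16246 genes to test, and the lowest count of any member in any library was 49. The RNA came from CD8+ T cells of C57BL/6 mice, either wild type (WT) or carrying a knockout (KO) of Cblb. Cblb encodes Cbl-b, a ubiquitin ligase that holds back T cell responses. Cells of each genotype were left unstimulated, treated with anti-CD3, an antibody to the signalling chains of the T cell receptor, or treated with anti-CD3 and anti-CD28 together, the latter adding the costimulatory signal, in experiments labelled 12 h. There were 17 libraries in 6 groups: 2 of WT cells treated with both antibodies (replicates 2 and 3) and 3 in every other group. The labels do not give the age or sex of the mice, the allele, how many mice were used, or whether the unstimulated cells were also kept in culture.

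The mitochondrial ribosome makes the few proteins that the mitochondrial genome encodes, all of them subunits of the respiratory chain and the ATP synthase. Its RNAs are transcribed inside the organelle, whereas its proteins are encoded in the nucleus, made in the cytosol and imported. The small subunit binds and decodes the messenger RNA, and the large subunit joins the amino acids and is held at the inner membrane. Activated T cells are known to enlarge their mitochondrial mass and translation capacity as they leave rest.

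Libraries held 16635826 to 38269033 counts, apart from KO unstimulated replicate 2 with 160059285. Cblb lay between 139.5 and 190.1 CPM (counts scaled to the same library size) in the WT libraries and between 63.9 and 95.9 CPM in the KO libraries. All 6 CD8 T cell markers were present, with a summed level of 1710 to 3356 CPM, while Cd4 did not exceed 0.292 CPM, the 4 B cell markers summed to 5.10 to 26.7 CPM and both platelet markers, Pf4 and Ppbp, were at 0 in every library. No label ties a replicate to an animal, and the p-values therefore reflect the spread among these libraries alone, whether it is technical or biological. A trend of level with GC content also set the libraries apart. Measured as the gap in median log2 deviation between expressed genes with 56% GC or more and those with 40% GC or less, it was widest in KO unstimulated replicate 2 (1.16) and, with the opposite sign, in replicate 3 of KO cells with both antibodies (-1.15). The remaining libraries lay between -0.71 and 0.55. Levels below are CPM, in bulk RNA, where fewer cells of a type and less RNA per cell cannot be told apart. Differences are log2 fold changes ± SE, and adjusted p comes from edgeR's quasi-likelihood test with the Benjamini-Hochberg method over all genes tested, with a gene called at an adjusted p under 0.05.

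Small and large subunit genes were expressed at similar levels for their length and moved together across the libraries. Over all libraries the median was 8.42 CPM per kb of exon among small subunit genes (2.75 to 25.6) and 9.11 among large subunit genes (3.28 to 43.8). Mrpl24, a protein at the mouth of the peptide exit tunnel, had the highest level per length, and Mrpl18 and Mrps21 followed with 28.03 and 25.6 CPM per kb. In Mrpl24, 26.3% of the exon bases overlap Rrnad1 on the opposite strand. Summed over their genes, the small subunit took 619 to 917 CPM and the large subunit 1103 to 1674 CPM, and the ratio of these sums stayed between 0.538 and 0.577 in all 17 libraries.

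For each library the median deviation of the members from their own means was taken on the log2 CPM scale. Both subunits had their highest medians in KO cells given anti-CD3, with library values of 0.23, 0.22 and 0.40 for the small subunit and 0.20, 0.18 and 0.43 for the large subunit. KO cells given both antibodies came next with 0.07, 0.15 and 0.17 (small) and 0.06, 0.20 and 0.22 (large). All 6 stimulated KO libraries thus stood above all 5 stimulated WT libraries, which had values from -0.13 to -0.01 in the small and from -0.14 to -0.06 in the large subunit. In the small subunit the unstimulated WT libraries were lowest (-0.33, -0.14 and -0.17). In the large subunit they were at -0.19, -0.13 and -0.21, overlapping the stimulated WT libraries. Unstimulated KO libraries were at -0.09, 0.06 and -0.06 in the small subunit and at -0.02, -0.02 and -0.12 in the large subunit. These values lay among and above those of stimulated WT libraries. The small minus large difference within a library ran from -0.14 to 0.08 and took both signs in every group. Within groups, the pooled SD of a library's median was 0.076 for the small and 0.075 for the large subunit, and the gap between the subunits exceeded these values in 2 libraries, WT unstimulated replicate 1 (-0.14) and KO unstimulated replicate 2 (0.08). Subunits here follow the symbols, although Mrps18a and Mrps30 sit in the large subunit of the assembled ribosome.

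**Figure D1:**
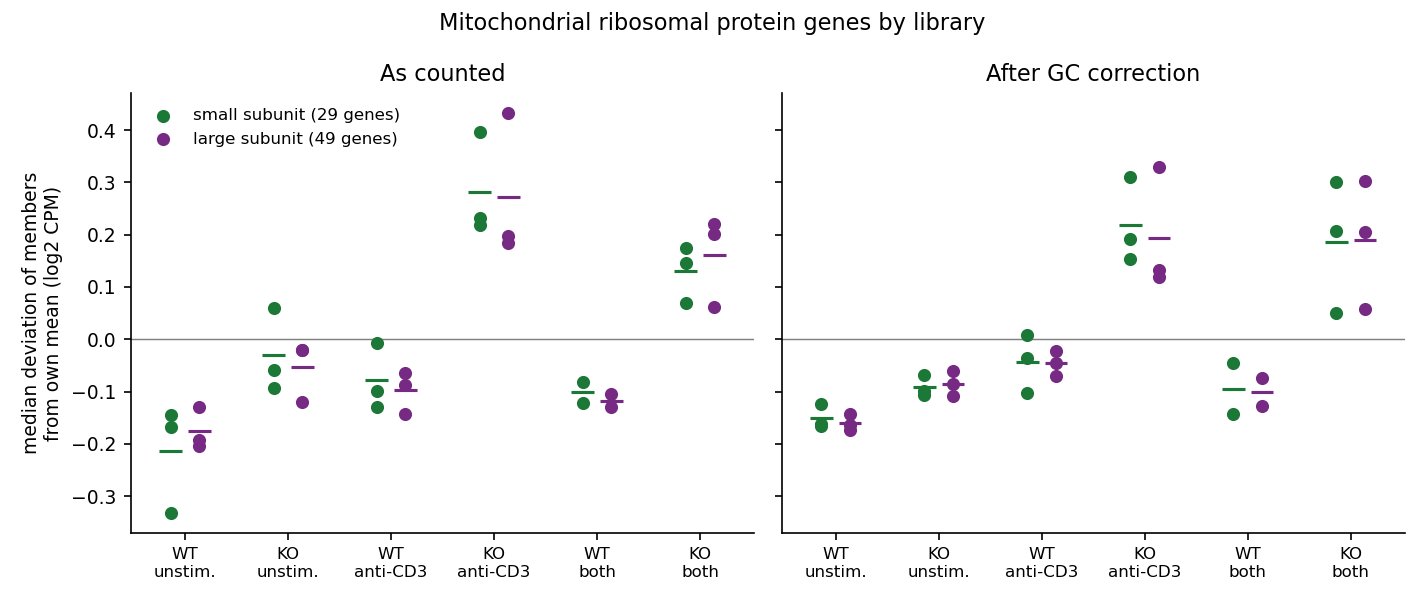
Median deviation of the 29 small subunit genes (green) and 49 large subunit genes (purple) from their own means, in log2 CPM, for each of the 17 libraries (points, grouped by genotype and stimulation) with the group mean as a line, as counted (left) and after a correction for GC content (right). The KO libraries given anti-CD3 or both antibodies lie above the stimulated WT libraries in both subunits and both panels.

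With anti-CD3 as the only stimulus, the members stood higher in KO than in WT cells. Of the 78, 35 were higher in KO cells and 0 lower, beside 10.5% of all genes tested called higher and 4.8% called lower. The median log2 fold change was 0.38 over the members, 0.33 in the small and 0.40 in the large subunit, and 0.04 over all genes. The calls took in 12 of 29 small and 23 of 49 large subunit genes. KO libraries were all above WT libraries for 58 members and all below for 0, where 27.4% and 17.6% of all genes were separated in these directions. Leaving out KO anti-CD3 replicate 3, the library with the highest medians, left 9 members higher, and leaving out WT anti-CD3 replicate 1, 2 or 3 left 22, 23 or 18, with 0 lower each time. Shares of all genes called with libraries left out are not given here or below, so such counts have no background. Mrps5, Mrps7, Mrps28, Mrps18a, Mrps18b, Mrpl18, Mrpl20 and Mrpl21, 8 members in all, were called under each of the 24 alternatives tried.

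Among small subunit genes, Mrps5, which lines the channel where the messenger RNA enters, had the smallest p of the members. Mrps5 was at 27.3, 29.1 and 29.4 CPM in WT and at 42.7, 40.9 and 47.9 CPM in KO libraries, a log2 fold change of 0.62 ± 0.10 (edgeR adjusted p = 0.000865). The 2 groups were well apart, and WT values hardly differed among themselves. Mrps28 was at 6.09, 5.97 and 6.61 CPM in WT and at 11.5, 9.57 and 14.6 CPM in KO libraries (0.94 ± 0.17, edgeR adjusted p = 0.0013). It had the second highest fold change of the members, with KO replicate 3 the highest library. Mrps12, a core protein of the decoding centre, was at 6.998, 7.80 and 6.23 CPM in WT and at 10.9, 10.9 and 14.4 CPM in KO libraries (0.79 ± 0.21, edgeR adjusted p = 0.019). It passed as counted but not after the correction for GC content (0.46 ± 0.19). Mrps7 and Mrps2, core proteins with bacterial counterparts, were also higher by 0.66 ± 0.11 and 0.33 ± 0.10 (edgeR adjusted p = 0.0011 and 0.040). After the GC correction Mrps7 was still called and Mrps2 was not. Mrps22, which has no bacterial counterpart, was at 14.9, 20.7 and 19.6 CPM in WT and at 21.3, 21.1 and 25.1 CPM in KO libraries and was not called (0.29 ± 0.17, edgeR adjusted p = 0.28), although the groups did not overlap.

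Among large subunit genes, Mrpl12, the protein of the flexible stalk that recruits translation factors, had the highest fold change. Mrpl12 was at 10.1, 7.003 and 10.5 CPM in WT and at 21.1, 16.0 and 25.5 CPM in KO libraries, a log2 fold change of 1.19 ± 0.27 (edgeR adjusted p = 0.0067). All KO libraries were above all WT libraries, with a wide spread in both groups. Its exons overlap a noncoding gene of the opposite strand, Gm16755, over 13.1% of their length. Mrpl20 and Mrpl21, whose bacterial counterparts bind the ribosomal RNA directly, were higher by 0.59 ± 0.11 and 0.53 ± 0.10 (edgeR adjusted p = 0.0025 and 0.0016). Mrpl45, which ties the ribosome to the inner membrane, was higher by 0.51 ± 0.12 (edgeR adjusted p = 0.0084). Mrpl3, near the peptidyl transferase centre, was at 46.9, 48.5 and 51.6 CPM in WT and at 58.4, 54.4 and 64.9 CPM in KO libraries and was not called as counted (0.27 ± 0.11, edgeR adjusted p = 0.097). Mrpl44, which carries a ribonuclease III fold, had 22.8, 19.6 and 20.7 CPM in WT and 23.3, 22.2 and 25.7 CPM in KO libraries (0.18 ± 0.10, edgeR adjusted p = 0.26), with overlapping groups. The lowest values belonged to Mrpl58 and Mrpl33. Mrpl58, a peptidyl-tRNA hydrolase that became part of the ribosome, was at 37.1, 31.8 and 32.9 CPM in WT and at 32.7, 29.6 and 32.0 CPM in KO libraries, the only member with a value below 0 (-0.11 ± 0.11, edgeR adjusted p = 0.56). Mrpl33 was at 47.2, 51.5 and 48.6 CPM in WT and at 49.9, 52.1 and 50.8 CPM in KO libraries (0.05 ± 0.09, edgeR adjusted p = 0.74), and its groups overlapped.

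**Figure D2:**
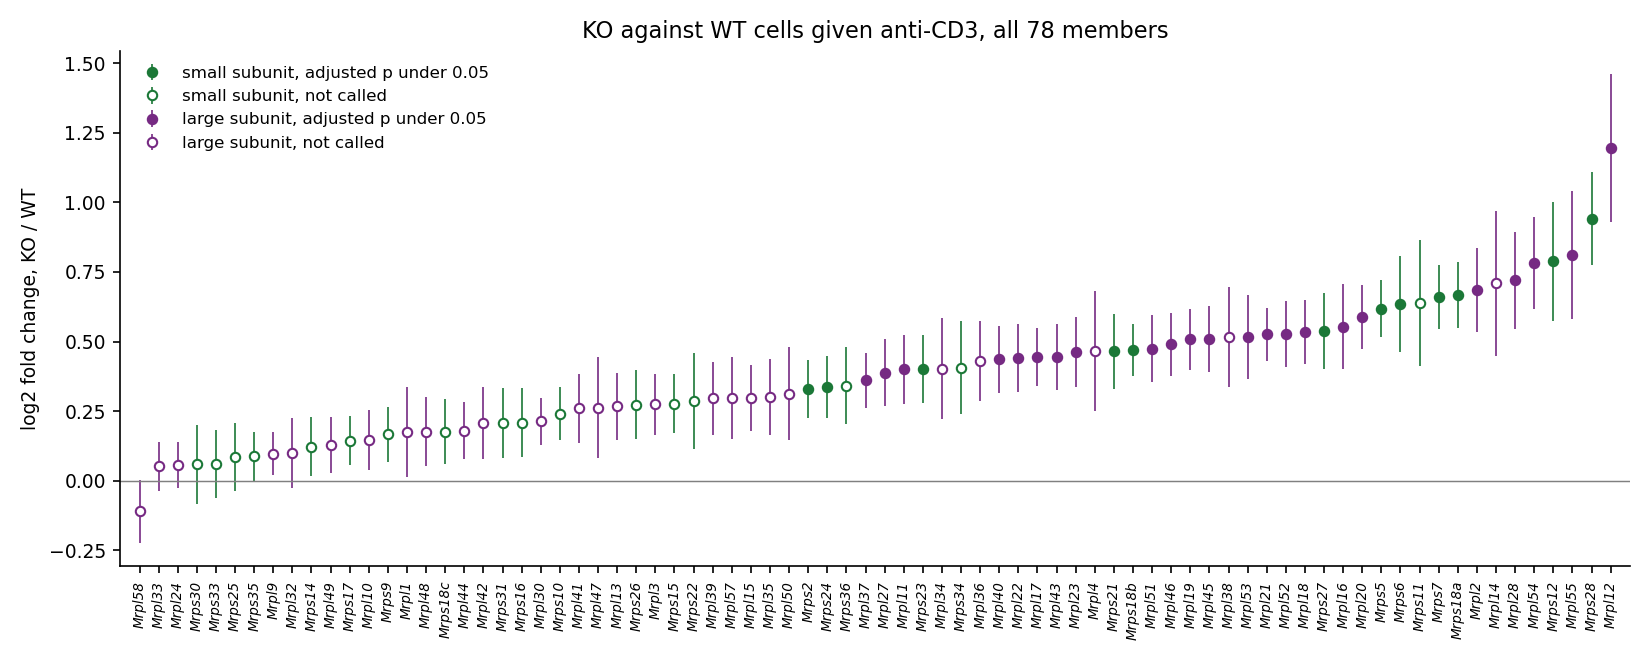
Log2 fold change of KO against WT cells given anti-CD3 (vertical axis) for all 78 members in order of value, with the SE as bars, green for small and purple for large subunit genes, filled where edgeR's adjusted p was under 0.05. From Mrpl58 at -0.11 to Mrpl12 at 1.19, 77 of 78 values lie above 0, and the 2 subunits are mixed along the whole order.

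Promoter windows from RefSeq (GRCm38.p6, from 250 bases before to 50 after the start of transcription) matched 69 of the 78 members. They were searched on both strands for 5 fixed strings of letters. Member windows held the YY1 string AANATGGC in 21 cases (30.4%, against 9.29% of 9359 windows of tested coding genes), the ETS family string CCGGAAG, bound by GABP, in 25 (36.2% against 19.4%) and the NRF1 string (GCGCA, any base, then GCGC) in 13 (18.8%, against 11.04%). The E-box CACGTG, bound by Myc with Max, was in 5 (7.25% against 10.3%) and the Sp1 string GGGCGG in 34 (49.3% against 64.2%). NRF1 and GABP are known regulators of nuclear genes for mitochondrial proteins. The windows of Mrps5 and Mrpl12, which had the smallest p and the highest fold change with anti-CD3, and of Mrps18b, Mrpl20 and Mrpl21, which were higher in KO cells in both stimulated states, are shown 5′ to 3′ on the gene's strand, with matches in capitals.
Mrps5 (chr2:127587176-127587475, plus strand, an Sp1 string): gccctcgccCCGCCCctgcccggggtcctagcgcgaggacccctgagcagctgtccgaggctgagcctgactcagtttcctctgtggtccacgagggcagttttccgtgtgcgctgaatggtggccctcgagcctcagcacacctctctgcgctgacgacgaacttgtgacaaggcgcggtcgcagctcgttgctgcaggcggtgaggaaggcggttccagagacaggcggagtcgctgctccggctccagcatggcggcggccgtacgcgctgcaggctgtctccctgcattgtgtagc
Mrpl12 (chr11:120484387-120484686, plus strand, an NRF1 string): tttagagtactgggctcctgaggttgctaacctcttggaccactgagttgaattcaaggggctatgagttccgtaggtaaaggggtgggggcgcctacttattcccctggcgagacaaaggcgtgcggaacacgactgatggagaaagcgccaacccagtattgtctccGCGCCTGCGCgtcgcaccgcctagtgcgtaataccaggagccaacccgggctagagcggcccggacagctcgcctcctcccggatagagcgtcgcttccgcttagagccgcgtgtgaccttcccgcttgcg
Mrps18b (chr17:35916391-35916690, minus strand, an ETS family and a pair of Sp1 strings): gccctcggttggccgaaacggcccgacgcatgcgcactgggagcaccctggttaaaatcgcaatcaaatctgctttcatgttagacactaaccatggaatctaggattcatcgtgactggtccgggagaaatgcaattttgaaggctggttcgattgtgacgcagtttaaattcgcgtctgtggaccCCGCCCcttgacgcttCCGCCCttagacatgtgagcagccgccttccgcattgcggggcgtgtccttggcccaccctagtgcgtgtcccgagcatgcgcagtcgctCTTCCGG
Mrpl20 (chr4:155802628-155802927, plus strand, an E-box): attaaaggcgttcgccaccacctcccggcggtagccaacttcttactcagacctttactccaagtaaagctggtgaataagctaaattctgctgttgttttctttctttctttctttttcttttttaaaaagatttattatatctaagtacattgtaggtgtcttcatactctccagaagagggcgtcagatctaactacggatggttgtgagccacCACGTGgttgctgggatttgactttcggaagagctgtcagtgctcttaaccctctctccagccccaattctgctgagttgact
Mrpl21 (chr19:3282792-3283091, plus strand, an ETS family and a YY1 string): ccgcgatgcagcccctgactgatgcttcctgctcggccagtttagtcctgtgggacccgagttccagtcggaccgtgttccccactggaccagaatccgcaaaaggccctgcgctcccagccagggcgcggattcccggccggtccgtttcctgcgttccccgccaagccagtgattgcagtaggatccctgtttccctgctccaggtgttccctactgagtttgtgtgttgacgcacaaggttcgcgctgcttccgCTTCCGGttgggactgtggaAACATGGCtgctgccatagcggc
The 5 windows share no single string of those searched, and a match describes letters only, not binding.

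Many members start close to another gene. The start of 26 of the 78 members (33.3%) lay head to head with that of a protein-coding gene on the other strand, at most 1000 bases apart or overlapping by at most 500, against 15.3% of 11899 coding genes tested. Of 25 such partners tested, 3 (12.0%) rose in KO cells with anti-CD3 relative to WT cells, near the 10.5% of all genes. They were Mrpl46, itself a member and the partner of Mrps11 (0.49 ± 0.11), Ndufs6, a complex I subunit facing Mrpl36 (0.51), and Sars2, a mitochondrial seryl-tRNA synthetase facing Mrps12 (0.91).

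KO and WT cells given both antibodies were compared next. Of the members, 28 were higher in KO cells and 0 lower, beside 9.84% of all genes higher and 6.3% lower, with a median log2 fold change of 0.26 (0.21 in the small and 0.27 in the large subunit, 0.00 over all genes). The calls took in 10 of 29 small and 18 of 49 large subunit genes. KO libraries were all above the WT libraries for 47 members and all below for 6, where 24.6% and 24.4% of all genes were so separated. The WT group had only 2 libraries, and leaving out either of them left 0 members called. Without replicate 2 or 3 of the KO group the counts were 15 and 12 higher. With the pair of libraries of most extreme GC trend left out together, 17 were higher. None of the counts with libraries left out has a share of all genes beside it.

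The members at the top of this order were Mrps36 and Mrps18c. Mrps36, named for the ribosome but known as a component of 2-oxoglutarate dehydrogenase, was at 13.6 and 12.1 CPM in WT and at 16.6, 22.3 and 25.8 CPM in KO libraries (0.75 ± 0.16, edgeR adjusted p = 0.0083). Mrps18c, one of 3 mammalian relatives of a single bacterial protein, was at 13.7 and 14.6 CPM in WT and at 20.3, 23.3 and 27.2 CPM in KO libraries (0.74 ± 0.14, edgeR adjusted p = 0.0043). All KO libraries of both genes were above all WT libraries, and replicate 3 was the highest. Of the exon bases of Mrps18c, 23.2% overlap Gm43511 on the same strand, where reads cannot be told apart with certainty. Mrps22 was at 14.6 and 13.3 CPM in WT and at 18.6, 21.6 and 27.2 CPM in KO libraries (0.69 ± 0.20, edgeR adjusted p = 0.030). Mrpl3 was at 42.4 and 39.7 CPM in WT and at 49.9, 57.1 and 68.3 CPM in KO libraries (0.51 ± 0.12, edgeR adjusted p = 0.015). As counted, both were thus called here and not with anti-CD3 alone. After GC correction, however, Mrpl3 was called with anti-CD3 alone and with both antibodies. The difference between the 2 states, tested as the interaction with added anti-CD28, was not called for any member as counted.

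Mrps5, Mrpl12 and Mrps12, which rose in KO cells with anti-CD3 alone, were not called with both antibodies. Mrps5 was at 34.3 and 32.4 CPM in WT and at 38.1, 33.9 and 31.2 CPM in KO libraries (0.04 ± 0.12, edgeR adjusted p = 0.83). Mrpl12 was at 15.8 and 16.6 CPM in WT and at 17.8, 10.8 and 11.02 CPM in KO libraries (-0.29 ± 0.29, edgeR adjusted p = 0.53), and Mrps12 had 11.2 and 9.89 CPM in WT and 9.88, 8.69 and 9.32 CPM in KO libraries (-0.18 ± 0.24, edgeR adjusted p = 0.64). In each of these 3 genes the value turned sign after the correction for GC content (-0.08, 0.07 and 0.25). Mrpl44 was at 20.7 and 18.8 CPM in WT and at 22.4, 23.7 and 23.2 CPM in KO libraries (0.23 ± 0.12, edgeR adjusted p = 0.19). At the bottom of the order stood Mrps11, on the platform of the small subunit, and Mrpl28. Mrps11 was at 8.52 and 8.76 CPM in WT and at 7.88, 5.44 and 4.57 CPM in KO libraries (-0.53 ± 0.26, edgeR adjusted p = 0.16), and Mrpl28 was at 18.3 and 19.1 CPM in WT and at 15.5, 15.4 and 10.1 CPM in KO libraries (-0.45 ± 0.20, edgeR adjusted p = 0.12). Neither passed the test, although the groups of both were apart, and Mrpl28 turned to 0.12 after the GC correction.

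Unstimulated KO and WT cells differed in fewer members once GC content was taken into account. As counted, 23 members were higher and 2 lower in KO cells, beside 15.3% and 10.1% of all genes, with a median of 0.14 (0.14 small, 0.13 large, -0.01 over all genes), and the KO libraries were all above for 23 and all below for 6 members (21.9% and 19.5% of all genes). The calls took in 10 small subunit genes higher and 2 lower, and 13 large subunit genes higher. After the correction 5 were higher and 0 lower (3.43% and 3.02% of all genes). The count of higher members was 3 without WT unstimulated replicate 1, 3 without KO unstimulated replicate 2, 14 without WT unstimulated replicate 3 and 13 without KO unstimulated replicate 1, and 16 without WT anti-CD3 replicate 3 or either WT both-antibody library. No member was called under each of the 24 alternatives.

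Mrpl12 was again at the top, with 4.80, 6.35 and 5.71 CPM in WT and 10.6, 12.3 and 22.3 CPM in KO unstimulated libraries (1.41 ± 0.28, edgeR adjusted p = 0.0069). Mrps11 followed, with 3.01, 5.28 and 4.70 CPM in WT and 8.25, 9.86 and 6.92 CPM in KO libraries (0.97 ± 0.23, edgeR adjusted p = 0.011). In both genes all KO libraries were above all WT libraries, and neither was called after the GC correction. Mrps5 was at 25.2, 30.8 and 29.4 CPM in WT and at 38.1, 41.0 and 35.4 CPM in KO libraries (0.43 ± 0.10, edgeR adjusted p = 0.011). It was among the 2 members called both as counted and after the correction, the other being Mrps16. The 2 members called lower were Mrps36, at 16.7, 15.2 and 17.3 CPM in WT and 12.1, 11.9 and 13.6 CPM in KO libraries (-0.40 ± 0.14, edgeR adjusted p = 0.048), and Mrps14, at 37.9, 39.6 and 39.4 CPM in WT and 31.5, 28.95 and 34.8 CPM in KO libraries (-0.30 ± 0.11, edgeR adjusted p = 0.047). The groups of both were apart as counted, and after the correction Mrps14 turned to 0.08. Of the other genes followed in every state, Mrps12 had 5.64, 4.75 and 5.71 CPM in WT and 8.93, 10.9 and 4.85 CPM in KO libraries (0.65 ± 0.22), and Mrps22 had 13.3, 12.6 and 16.7 CPM in WT and 13.4, 9.23 and 13.5 CPM in KO libraries (-0.26 ± 0.18). Mrpl3 had 52.8, 47.4 and 45.7 CPM in WT and 43.4, 39.7 and 45.3 CPM in KO libraries (-0.19 ± 0.11), and Mrpl44 had 19.1, 19.9 and 16.9 CPM in WT and 21.4, 20.7 and 18.1 CPM in KO libraries (0.11 ± 0.10). The groups of Mrps12, Mrps22 and Mrpl44 overlapped and those of Mrpl3 did not, and of these 4 genes only Mrps12 was called.

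The GC trend was then followed through the members themselves. The GC content of a gene was that of its longest annotated transcript, and it ran from 38.6% in Mrps9 to 60.4% in Mrpl54, with a median of 49.8% against 48.7% over all genes tested, 49.2% in the small and 49.8% in the large subunit. Across the 78 members, which share libraries and differ in level and length, GC content and the log2 difference between the genotypes had a Pearson correlation of 0.73 without stimulation, 0.62 after anti-CD3 and -0.63 after both antibodies. Over 11899 coding genes the same values were 0.58, 0.32 and -0.44. The trend thus ran upward in the first and second comparison and downward in the last.

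Split by GC content into 3 classes of 26 members (low, middle and high), the calls followed it. Unstimulated, 1 member of the low class, 5 of the middle and 17 of the high class were higher in KO cells. With anti-CD3 these counts were 4, 13 and 18, and with both antibodies 15, 9 and 4. A correction that gave each library its own curve of level against GC content left correlations among members of -0.35, -0.05 and 0.26. After it the counts of higher members by class were 3, 2 and 0 unstimulated, 10, 11 and 11 with anti-CD3, and 7, 9 and 13 with both antibodies.

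The totals after correction were 32 members higher and 0 lower with anti-CD3 (10.8% and 11.6% of all genes) and 29 higher and 0 lower with both antibodies (9.94% and 7.69%). The medians were 0.26 (0.23 small, 0.28 large) and 0.31, against -0.05 and -0.04 over all genes. Called both with and without the correction were 24 members with anti-CD3 and 19 with both antibodies, and unstimulated 2. KO libraries stood apart above WT libraries for 52 members and below for 1 with anti-CD3 (19.1% and 24.0% of all genes), and for 46 and 4 with both antibodies (21.8% and 26.2%). The counts in the stimulated states thus changed little while the members that made them up changed in part.

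**Figure D3:**
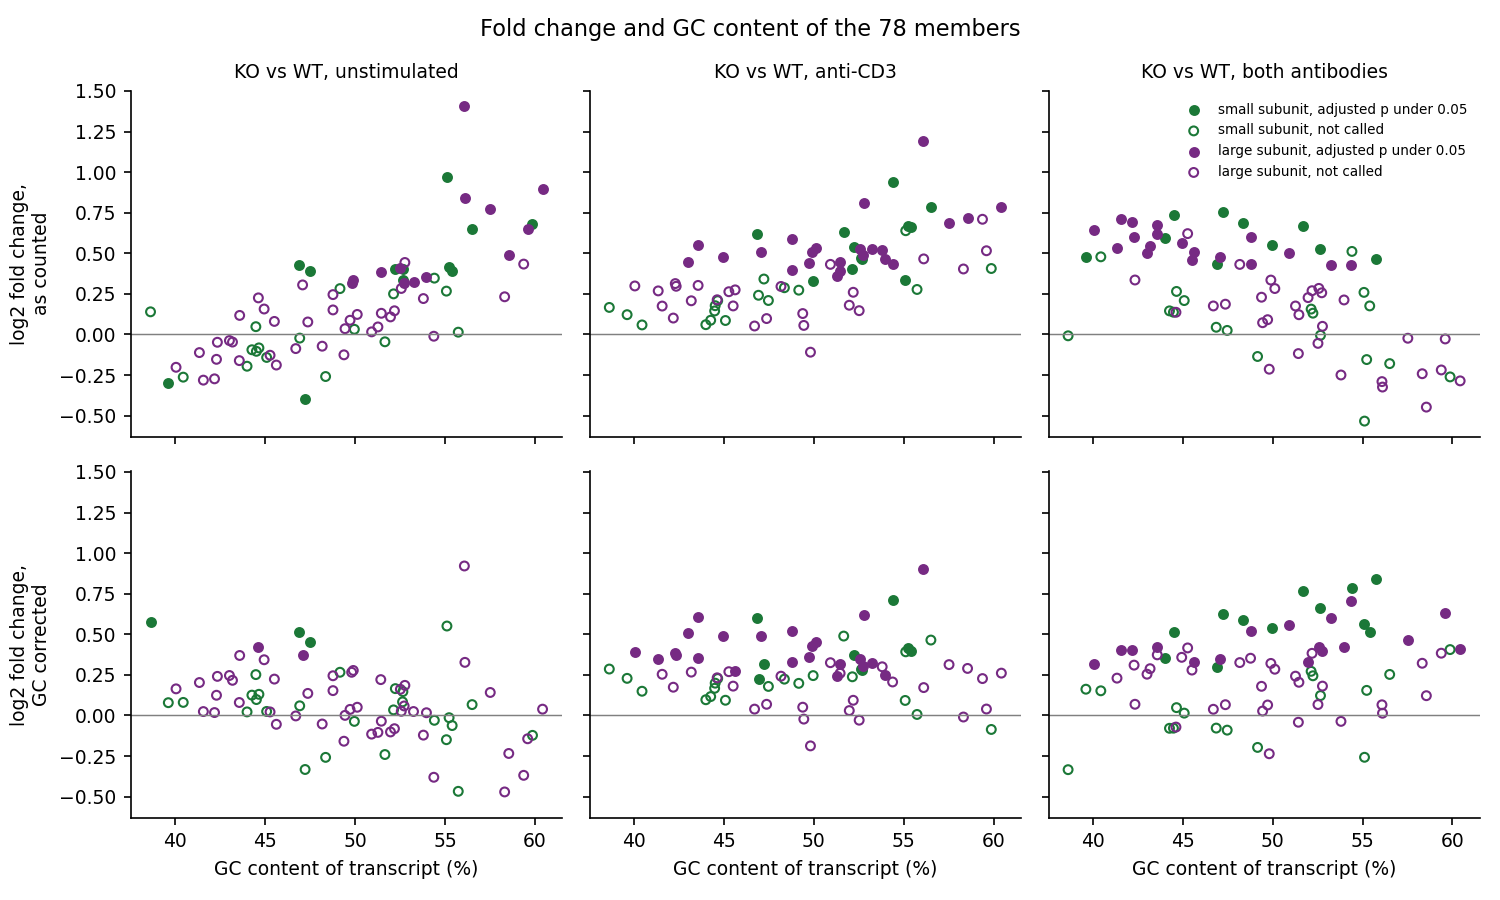
Log2 fold change of KO against WT (vertical axis) and GC content of the longest transcript in percent (horizontal axis) for the 78 members in the 3 states (columns: unstimulated, anti-CD3, both antibodies), as counted (top) and after GC correction (bottom), green for small and purple for large subunit genes, filled where edgeR's adjusted p was under 0.05. The slope seen in each upper panel, with correlations of 0.73, 0.62 and -0.63, is weaker in the lower panels (-0.35, -0.05 and 0.26), and the filled points with anti-CD3 then lie across the whole range of GC content.

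Members higher in KO cells in both stimulated states were counted from 2 comparisons that share no library. As counted, 11 members were shared, 11 of the 35 with anti-CD3 and 11 of the 28 with both antibodies, and after GC correction 14, of 32 and 29. In all 4 of these lists were Mrpl19, Mrpl20, Mrpl21 and Mrps18b. Genes of the opposite strand overlap 36% of the exon bases of Mrpl19 (Gcfc2), 30.5% of Mrps18b (Gm16279) and 5.82% of Mrpl21 (Ighmbp2). The share of all genes called in both states is not given, and whether the lists share more members than unrelated lists would was not tested. Mrpl20 was at 26.8, 26.3 and 25.6 CPM in WT and at 35.7, 35.9 and 46.5 CPM in KO libraries with anti-CD3, and at 25.1 and 23.5 CPM in WT and 32.7, 38.1 and 39.4 CPM in KO libraries with both antibodies. Mrps18b was at 31.2, 33.5 and 32.2 CPM in WT and at 42.5, 43.2 and 48.3 CPM in KO libraries with anti-CD3, and at 28.3 and 29.4 CPM in WT and 39.0, 41.9 and 43.6 CPM in KO libraries with both antibodies. In either gene every stimulated KO library was above every stimulated WT library. In the opposite case, Mrpl9, Mrpl14, Mrpl24, Mrpl30, Mrpl33, Mrpl34, Mrpl41, Mrpl44, Mrpl49, Mrps9 and Mrps35 were not called as counted in any of the 9 comparisons between groups.

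The response to stimulation was taken within each genotype against the same unstimulated libraries. Summed marker levels also differed there. The 6 CD8 T cell markers were at 3047 to 3356 CPM unstimulated and 1710 to 1907 CPM stimulated, the 4 B cell markers at 17.1 to 26.7 and 5.10 to 9.40 CPM, and the 2 NK cell markers at 2.00 to 4.02 and 0.113 to 1.78 CPM. Their part in the results was not tested. In WT cells given anti-CD3, 8 members were higher and 3 lower, beside 11.3% and 13.1% of all genes, with a median of 0.10 (0.12 small, 0.10 large, 0.00 over all genes). In KO cells given anti-CD3, 35 were higher and 2 lower, beside 19.6% and 17.3%, with a median of 0.27 (0.28 small, 0.26 large, 0.02 over all genes). The shares of members higher were thus near the background in WT cells and above it in KO cells. In WT cells the count was 6 higher and 1 lower without WT unstimulated replicate 1 or 2, 5 and 1 without replicate 3, 7 and 0 without WT anti-CD3 replicate 1 and 13 and 4 without KO both-antibody replicate 1, and 16 and 4 after GC correction, beside 15.9% and 18.2% of all genes. In KO cells it was 41 higher and 4 lower after GC correction, beside 20.2% and 23.6% of all genes.

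Mrps6, the small subunit counterpart of a bacterial platform protein, had the highest fold change in both genotypes. It was at 6.94, 6.84 and 7.58 CPM in unstimulated WT and at 10.8, 14.2 and 15.2 CPM in WT libraries with anti-CD3 (0.92 ± 0.18, edgeR adjusted p = 0.0010). In KO libraries it was at 8.03, 6.22 and 6.60 CPM unstimulated and at 19.1, 19.6 and 23.8 CPM with anti-CD3 (1.60 ± 0.18, edgeR adjusted p = 2.73e-06). Groups were apart in both genotypes. Of the exon bases of Mrps6, 10.4% overlap Slc5a3 and 19.9% overlap Gm49711. Both lie on the same strand, where reads cannot be told apart with certainty. In WT cells Mrpl12 had the next highest value, from 4.80, 6.35 and 5.71 to 10.1, 7.003 and 10.5 CPM, and was not called. Mrps10, Mrpl20, Mrpl15, Mrpl21, Mrps18b, Mrps2 and Mrps7 were the other WT genes that rose, by 0.34 to 0.54. In KO cells Mrps22 followed Mrps6, from 13.4, 9.23 and 13.5 to 21.3, 21.1 and 25.1 CPM (0.93 ± 0.18, edgeR adjusted p = 0.00052).

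Mrps26 and Mrpl57, proteins without bacterial counterparts, and Mrpl52 fell in WT cells. Mrps26 went from 21.3, 25.4 and 24.6 to 17.8, 19.5 and 16.8 CPM (-0.40 ± 0.12, edgeR adjusted p = 0.026). Mrpl57 went from 24.1, 16.0 and 20.9 to 14.6, 14.2 and 16.6 CPM (-0.43 ± 0.15, edgeR adjusted p = 0.039), with a small overlap. In KO cells Mrps26 also fell, from 28.2, 33.3 and 24.6 to 21.0, 19.7 and 24.5 CPM (-0.41 ± 0.12, edgeR adjusted p = 0.015), together with Mrpl10, which holds the stalk of the large subunit (-0.30 ± 0.11, edgeR adjusted p = 0.034). Mrpl4, which lines the exit tunnel, was at 21.7, 28.7 and 18.5 CPM unstimulated and at 17.1, 18.2 and 21.0 CPM in KO cells with anti-CD3, with overlapping groups, and was not called.

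With both antibodies, 16 members were higher and 4 lower than in unstimulated WT cells, beside 17.8% and 16.3% of all genes (median 0.05). In KO cells 29 were higher and 5 lower, beside 23.0% and 22.5% (median 0.19). In WT cells 6 higher and 2 lower remained without WT both-antibody replicate 2, and 6 and 1 without replicate 3. Without the pair of libraries of most extreme GC trend, 17 were higher and 1 lower in KO cells. After GC correction 13 were higher and 4 lower in WT cells, beside 15.2% and 17.5% of all genes. In KO cells 37 were then higher and 5 lower, beside 21.2% and 22.7%.

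In WT cells Mrpl12 rose to 15.8 and 16.6 CPM (1.53 ± 0.30, edgeR adjusted p = 0.0013) and Mrpl54 went from 9.08, 9.62 and 11.4 to 20.2 and 20.3 CPM (1.01 ± 0.18, edgeR adjusted p = 0.00058). Mrps14 went from 37.9, 39.6 and 39.4 to 27.2 and 27.2 CPM (-0.52 ± 0.12, edgeR adjusted p = 0.0039), and Mrps33 from 33.3, 35.1 and 30.0 to 26.01 and 22.03 CPM (-0.45 ± 0.14, edgeR adjusted p = 0.019). All 4 genes had groups that did not overlap, and Mrpl54 and Mrps33 were not called after GC correction. In KO cells Mrps6 was at 14.2, 19.7 and 23.6 CPM with both antibodies (1.47 ± 0.18, edgeR adjusted p = 6.99e-06), and Mrpl15 went from 34.8, 35.6 and 42.0 to 57.9, 69.6 and 87.7 CPM (0.94 ± 0.12, edgeR adjusted p = 1.13e-05). Mrpl4 went to 20.9, 14.1 and 9.85 CPM (-0.63 ± 0.22, edgeR adjusted p = 0.024) and Mrps34 from 20.8, 26.5 and 21.99 to 17.8, 16.5 and 11.9 CPM (-0.59 ± 0.17, edgeR adjusted p = 0.0085). The groups of Mrpl4 overlapped and those of Mrps34 did not. After GC correction Mrpl4 was not called, and the value of Mrps34 became 0.06. Of the exon bases of Mrps34, 63.4% overlap Mapk8ip3 on the opposite strand and 37% overlap Nme3 on the same strand.

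**Figure D4:**
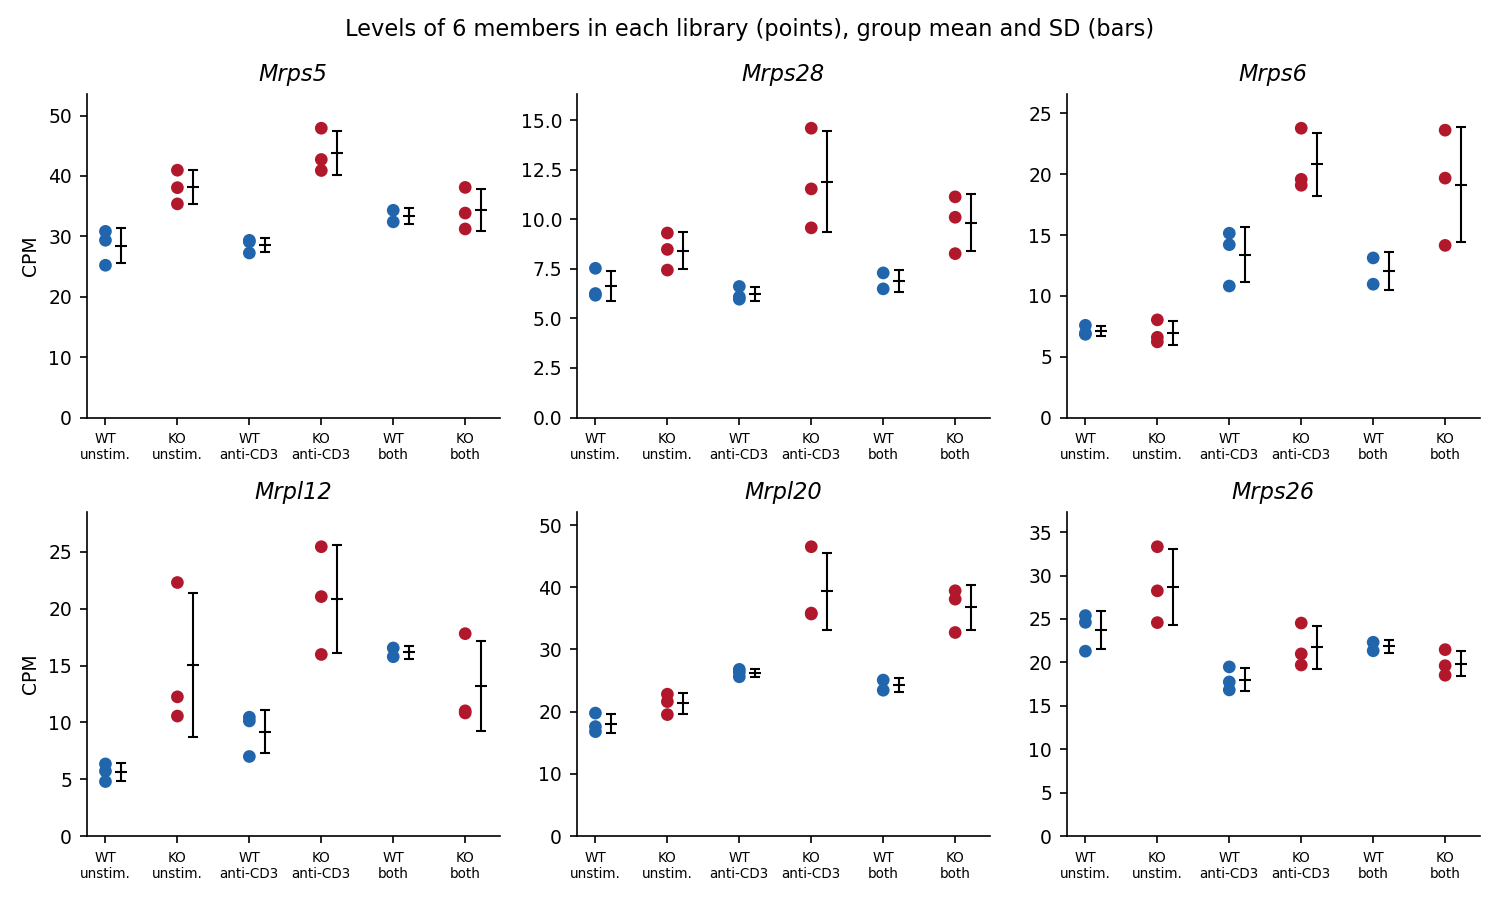
CPM of Mrps5, Mrps28, Mrps6, Mrpl12, Mrpl20 and Mrps26 in each library (points, blue for WT and red for KO) with the group mean and SD (bars) in the 6 groups, each panel with its own vertical axis from 0. Mrps6 and Mrpl20 are higher in every stimulated library than in the unstimulated libraries of the same genotype. Mrps28 has its highest group mean in KO cells given anti-CD3, with points that overlap those of KO cells given both antibodies. Mrpl12 varies widely among KO libraries, and Mrps26 is lower after anti-CD3 in both genotypes.

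Adding anti-CD28 to anti-CD3 gave 0 calls among the members in either genotype by edgeR, as for all genes (0.0% higher and 0.0% lower). At an unadjusted p under 0.05 there were 16 members in WT and 11 in KO cells, with no share of all genes given at that threshold. DESeq2 called 4 and 0, beside 2.45% of all genes higher and 0.554% lower in WT and 0.0% in KO cells. Leaving out KO both-antibody replicate 1 gave 5 and 3 calls, leaving out its replicate 3 gave 5 in WT cells, and leaving out the pair of libraries of most extreme GC trend gave 8 in WT cells. After GC correction edgeR again called 0 members, beside 0.0185% of all genes higher and 0.0123% lower in WT and 0.0% in KO cells. The medians were -0.05 in WT and -0.11 in KO cells as counted, and -0.05 and -0.03 after GC correction. At the ends of the WT order, Mrpl12 went from 10.1, 7.003 and 10.5 to 15.8 and 16.6 CPM, Mrpl14 from 2.79, 4.14 and 3.53 to 5.92 and 5.24 CPM, Mrps33 from 31.7, 34.9 and 32.3 to 26.01 and 22.03 CPM and Mrps22 from 14.9, 20.7 and 19.6 to 14.6 and 13.3 CPM. In KO cells Mrps11 went from 10.2, 8.61 and 10.5 to 7.88, 5.44 and 4.57 CPM and Mrpl12 from 21.1, 16.0 and 25.5 to 17.8, 10.8 and 11.02 CPM, while Mrpl32 went from 36.4, 35.0 and 41.5 to 35.0, 44.8 and 55.3 CPM and Mrpl1 from 27.7, 29.9 and 35.0 to 25.7, 34.3 and 46.1 CPM. The KO groups of Mrpl12, Mrpl32 and Mrpl1 overlapped.

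Whether stimulation moved the members differently in KO and WT cells was tested with interaction terms. For anti-CD3 alone, 0 members were called by edgeR (0.0492% of all genes higher and 0.00616% lower), and 14 had an unadjusted p under 0.05. DESeq2 called 1 member, beside 0.726% of all genes higher and 0.603% lower. The median interaction was 0.25, so the larger rise of the members in KO cells was not shown gene by gene. One member, Mrps36, was called after GC correction (0.65 ± 0.16), beside 1.2% of all genes higher and 1.08% lower. The count was 1 without KO both-antibody replicate 1 and 2 without its replicate 3. For both antibodies, 20 members were called higher and 11 lower in the interaction, beside 18.3% and 19.2% of all genes, and after GC correction 20 and 6 (8.46% and 7.15%). The higher calls came mainly from the class of low GC content (14, against 5 and 1 in the middle and high classes) and the lower calls from the high class (9, against 0 low and 2 middle). Leaving out WT both-antibody replicate 2 or 3 left 11 higher and 8 lower or 12 and 7, and leaving out the pair of libraries of most extreme GC trend left 10 and 7. Of the 4 members with the smallest p, Mrps36 (1.15 ± 0.21, edgeR adjusted p = 0.0037), Mrpl32 (0.97 ± 0.19) and Mrps14 (0.78 ± 0.16) were higher and Mrpl54 was lower (-1.18 ± 0.25). After GC correction they stood at 0.96, 0.39, 0.08 and 0.37, so Mrpl54 changed sign and only Mrps36 and Mrpl32 were still called. For added anti-CD28, 0 members were called by edgeR (0.0% higher and 0.00616% lower of all genes), and after GC correction 0 again (0.0369% and 0.0554% of all genes). DESeq2 called 13 members, beside 6.23% of all genes higher and 8.42% lower. An unadjusted p under 0.05 was found for 23 members, and the share of all genes at that threshold is not given. Leaving out KO both-antibody replicate 1 gave 10 higher and 13 lower, and leaving out KO unstimulated replicate 2 gave 0 and 7.

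Other genes of mitochondrial translation were read from lists in the same fit. With anti-CD3, KO cells were higher than WT cells in 3 of 5 structural proteins without an Mrp symbol (Aurkaip1, Chchd1 and Gadd45gip1). They were also higher in 6 of 17 translation factors and in 4 of 26 assembly and rRNA modification factors. The same held for 4 of 22 genes listed for tRNA charging (Kars, Gars, Tars2 and Sars2). In each list 0 were lower, beside 10.5% of all genes higher and 4.8% lower. The shares of the last 2 lists were near that background. After GC correction the last 3 lists each had 1 lower call (Mtif3, Nsun4 and Hars2). Of the 5 structural proteins 3 were again higher, with Ptcd3 called in place of Aurkaip1. Tufm, the mitochondrial elongation factor that brings aminoacyl-tRNA, was at 49.5, 43.6 and 39.95 CPM in WT and at 65.5, 63.2 and 84.3 CPM in KO libraries (0.68 ± 0.14, edgeR adjusted p = 0.00385). C1qbp, a matrix protein needed for mitochondrial translation, was at 64.1, 67.6 and 67.1 CPM in WT and at 94.0, 93.6 and 113.8 CPM in KO libraries (0.60 ± 0.13, edgeR adjusted p = 0.00535). Both had all KO libraries above all WT libraries. Among 8 tested regulators of mitochondrial biogenesis, Myc (1.37 ± 0.12, edgeR adjusted p = 8.88e-06) and Pprc1 (0.85 ± 0.14, edgeR adjusted p = 0.00083) were higher and 0 lower as counted, and Yy1 was lower after GC correction.

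The messages that the mitochondrial ribosome translates were read the same way. Of the 13 mitochondrially encoded mRNAs, 0 were called between KO and WT cells given anti-CD3, 7 were lower in unstimulated KO cells (10.1% of all genes) and 1, mt-Nd1, was higher in KO cells given both antibodies (9.84% of all genes). After GC correction 0 were called in each of these 3 comparisons. After anti-CD3, 4 were lower in WT and 2 in KO cells (13.1% and 17.3% of all genes), and with the correction 8 and 6 (18.2% and 23.6%). After both antibodies, 8 were lower in WT cells (median -0.81, 16.3% of all genes) while 3 were higher and 0 lower in KO cells (23.0% and 22.5%), and with the correction 4 and 5 were lower (17.5% and 22.7%) and 0 higher. The ribosomal RNAs of the organelle cannot be read here, since ribosomal RNA was removed from the libraries. The nuclear subunits of the respiratory chain had 28 of 77 higher and 1 lower in KO cells given anti-CD3 (median 0.30), where the members had 35 of 78 (median 0.38). Of all genes, 10.5% were higher and 4.8% lower there.

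As counted, cytosolic ribosomal protein genes went another way on stimulation. Of 87 tested, 2 were higher and 58 lower in WT cells after anti-CD3 (median -0.48), beside 11.3% and 13.1% of all genes. In KO cells 2 were higher and 68 lower (median -0.57), beside 19.6% and 17.3%. The mitochondrial members had 8 and 3 in WT, and 35 and 2 in KO cells. With both antibodies 78 of 87 were lower in KO cells, against 5 of 78 members and 22.5% of all genes. Cytosolic counts on stimulation are not given after GC correction. Between KO and WT cells the cytosolic genes were higher in KO cells in 47 of 87 cases without stimulation, in 20 after anti-CD3 and in 10 after both antibodies (medians 0.35, 0.27 and 0.02), beside 15.3%, 10.5% and 9.84% of all genes, where the members had 23, 35 and 28 of 78. After GC correction the cytosolic counts were 31, 16 and 19, beside 3.43%, 10.8% and 9.94% of all genes, and those of the members 5, 32 and 29. The difference between these lists was not tested.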

How the data were processed

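Ribosomal RNA was depleted from total RNA before sequencing, per the labels' protocols. The deposited values are whole-number counts per Ensembl gene, 1 file per library. The submitters' processing notes name STAR 2.5.2, RSEM 1.3.0 and the GRCm38 (mm10) build. The rounding of the counts and the strand setting are not stated there, so reads of overlapping genes may be shared. Library totals were 16635826 to 160059285.

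Symbols came from the GRCm38 annotation, for 53565 of 53679 identifiers. Counts of 17 libraries were fitted with edgeR 4.0.16 in R 4.3.3 (limma 3.58.1), with TMM scaling, its filter on low counts, 1 coefficient per group and robust quasi-likelihood tests of 12 contrasts. P-values were adjusted over all 16246 genes tested. Log2 CPM used a prior count of 2. Tables and figures were made with Python 3.11.15, pandas 2.3.3 and matplotlib 3.10.9. The code was tested on simulated counts with known changes.

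The members and gene lists were chosen with earlier results of these data known. Values per library are given for Mrps12, Mrps5, Mrps22, Mrpl12, Mrpl3 and Mrpl44, for the 2 members with the highest and the 2 with the lowest fold change in each of 9 comparisons between groups, and for some members called in several of them. In an interaction with more than 8 calls the 4 members of smallest p are named, and from other lists up to 4 genes a direction.

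Alternatives were relative log expression scaling, DESeq2 1.42.0, no filter on low counts, a loess correction for GC content per library (span 0.3), the replicate number as a block with and without that correction, leaving out the 2 libraries of most extreme GC trend, leaving out each library in turn, and another assignment of 3 members to the subunits. Replicate numbers recur between groups, but deviations of same-numbered libraries correlated from -0.49 to 0.63 over 40 pairs, with a median of 0.02, and were taken as unpaired. Replicate 1 of WT cells with both antibodies was not analysed here.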

Additional observations from a re-analysis of the deposited data

Results flagged for a closer look

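The change from unstimulated cells to both antibodies was tested for a difference between KO and WT cells. By edgeR 31 members were called, 20 higher and 11 lower, beside 18.3% and 19.2% of all genes, so as counted the share of members was near the background. After GC correction 20 were higher and 6 lower, beside 8.46% and 7.15% of all genes, so the share of members higher was then above it. Leaving out either WT both-antibody library left 19. Mrps36 (1.15), Mrpl32 (0.97) and Mrps14 (0.78) had mean levels that were lower after both antibodies in WT cells and higher in KO cells. Mrpl54 (-1.18) had the reverse, from 10.04 to 20.2 CPM in WT and from 18.5 to 16.6 CPM in KO cells. After GC correction these values were 0.96, 0.39, 0.08 and 0.37.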

How the results depend on the processing

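Of 56 values for named members, each recomputed under 24 alternatives, 1208 of 1344 recomputed values kept their direction and side of the threshold, 97 lost a call, 18 gained one and 21 changed sign. With 1 library left out at a time, the number of members called between KO and WT cells ran from 3 to 29 unstimulated, 9 to 42 with anti-CD3 and 0 to 37 with both antibodies. Against unstimulated cells it ran from 6 to 17 in WT and 25 to 40 in KO cells with anti-CD3, and 7 to 24 and 27 to 40 with both antibodies. For added anti-CD28 it ran from 0 to 5 in WT and 0 to 3 in KO cells, and in the interactions from 0 to 2 (anti-CD3), 19 to 43 (both antibodies) and 0 to 23 (added anti-CD28). No share of all genes was set beside these counts, and the cause was not tested.

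GC correction gave 5 calls between unstimulated KO and WT cells in place of 25, 20 in WT cells after anti-CD3 in place of 11, and 1 in the anti-CD3 interaction in place of 0. Medians then were 0.05 for the large subunit unstimulated, 0.229 and 0.276 for the small and large subunit between KO and WT cells with anti-CD3, and -0.037 for the small subunit in KO cells for added anti-CD28. Without the 2 libraries of most extreme GC trend, calls were 11 unstimulated and 17 with both antibodies between KO and WT cells, 19 in WT cells after anti-CD3, 18 in KO cells after both antibodies, 8 in WT cells for added anti-CD28, and 17 and 3 in the interactions with both antibodies and added anti-CD28. DESeq2 called 4 members in WT cells for added anti-CD28, 1 in the anti-CD3 interaction and 13 in the interaction with added anti-CD28, where 4 were called with no filter on low counts. In the same order, DESeq2 called 2.45%, 0.726% and 6.23% of all genes higher and 0.554%, 0.603% and 8.42% lower.

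The replicate block alone gave 20, 34 and 31 calls between KO and WT cells (unstimulated, anti-CD3, both antibodies), and moved no count by over 1.5 times. The replicate block with GC correction gave 7 unstimulated, 21 in WT cells after anti-CD3 and 2 in the anti-CD3 interaction.

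Signs changed after GC correction, without and with the block, between KO and WT cells for Mrpl44 (-0.10 and -0.10) and Mrps14 (0.08 and 0.08) unstimulated, and for Mrpl12 (0.07 and 0.08), Mrpl28 (0.12 and 0.17), Mrps12 (0.25 and 0.26) and Mrps5 (-0.08 and -0.08) with both antibodies. They also changed for Mrps34 in KO cells after both antibodies (0.06 and 0.06), Mrpl14 in WT cells for added anti-CD28 (-0.04 and -0.07) and Mrpl54 in the interaction with both antibodies (0.37 and 0.41). With 1 library left out, Mrps5 with both antibodies ran from -0.04 (without KO both-antibody replicate 1) to 0.11, and Mrpl1 in KO cells for added anti-CD28 from -0.04 (without KO both-antibody replicate 3) to 0.38. The latter was -0.03 without the 2 libraries of most extreme GC trend.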
